A study of Arabidopsis thaliana with 12 samples.

Results

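The genes of Rubisco and of Rubisco activase were followed through leaf RNA of wild type and otp90 Arabidopsis. The members were taken by gene identifier and are 6 of the 32743 genes in the count tables: the plastid gene rbcL (ATCG00490), the nuclear small subunit genes RBCS1A (AT1G67090), RBCS1B (AT5G38430), RBCS2B (AT5G38420) and RBCS3B (AT5G38410), and RCA (AT2G39730). No rule on measured values was used for this choice, but earlier results of these data were known when it was made. RNA was sequenced from leaves of vegetative, untreated plants aged 35 days and grown in long days. The plants were wild type (WT, Col-0) or otp90, a single homozygous T-DNA insertion line in OTP90 (AT1G25360), a gene for a pentatricopeptide repeat protein of RNA editing. Each genotype gave 3 libraries of an extract named Mito and 3 of an extract named Total, which makes 4 groups and 12 libraries. The labels do not say how the Mito extract was prepared, so Mito and Total serve here only as names. They also do not say whether replicates came from separate plants, so p-values measure only the spread between these libraries.

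Rubisco fixes CO2 in the chloroplast and is the most abundant leaf protein. Its large subunit, which carries the catalytic site, is made inside the plastid from rbcL, while the small subunits are made in the cytosol from a nuclear RBCS family and imported, so that a working enzyme needs transcripts of both genomes. Rubisco activase, made from nuclear RCA, is an ATPase that removes inhibitory sugar phosphates from the active site and opens it to its substrate.

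The 6 genes differ in how well a read can be assigned to them. The gene rbcL lies on the plus strand of the plastid chromosome at 54958 to 56397 and has 1 exon. The others lie on minus strands: RBCS1A at chr1:25048158-25049667, RCA at chr2:16570746-16573692, and the 3 B copies side by side as RBCS3B at chr5:15376988-15378642, RBCS2B at chr5:15380907-15382071 and RBCS1B at chr5:15383167-15385320. Between their coding sequences the B copies were 96.7 to 97.25% identical, with 15 to 18 differing bases in 546, and RBCS1A was 90.42 to 90.61% identical to them. Reads that matched several places equally well were counted in each place. To see what that means for a 75-base read, all 75-base windows of the exons were searched in the genome. All windows of RBCS1A and RCA occurred once, whereas 9.33% of the RBCS1B windows, 5.33% of the RBCS2B windows and 14.1% of the RBCS3B windows were also present in another B copy. For rbcL, 92.6% of the windows occurred once in the genome. Of its 1366 windows, 59 were also present in AT2G07732, a gene at chr2:3468160-3468899 with 191092 to 512512 counts per library. No other gene was found to hold rbcL windows. The following stretches show both extremes of the coding sequence, one in which the B copies cannot be told apart and one in which they differ most. They are taken from the RefSeq TAIR10.1 genome, run 5′ to 3′ along the coding strand, and have in capitals each base that differs from RBCS1B. The stretch from coding base 361 to 435 was the same in the 3 B copies and had 4 differences in RBCS1A:
RBCS1A chr1:25048573-25048647 minus: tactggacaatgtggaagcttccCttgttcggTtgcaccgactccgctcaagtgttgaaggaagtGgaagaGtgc
RBCS1B chr5:15384461-15384535 minus: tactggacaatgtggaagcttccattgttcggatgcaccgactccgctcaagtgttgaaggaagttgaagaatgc
RBCS2B chr5:15381314-15381388 minus: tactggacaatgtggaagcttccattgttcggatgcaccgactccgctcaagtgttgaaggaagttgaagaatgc
RBCS3B chr5:15377612-15377686 minus: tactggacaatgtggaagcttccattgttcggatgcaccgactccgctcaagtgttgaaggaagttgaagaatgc
The stretch from coding base 73 to 147 occurred once in the genome for each copy, with 3 differences from RBCS1B in RBCS2B, 9 in RBCS3B and 12 in RBCS1A:
RBCS1A chr1:25049103-25049177 minus: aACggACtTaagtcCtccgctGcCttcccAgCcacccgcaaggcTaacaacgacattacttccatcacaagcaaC
RBCS1B chr5:15385009-15385083 minus: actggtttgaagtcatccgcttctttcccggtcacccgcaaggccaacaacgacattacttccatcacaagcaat
RBCS2B chr5:15381832-15381906 minus: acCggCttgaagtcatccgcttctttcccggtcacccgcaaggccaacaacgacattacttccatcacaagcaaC
RBCS3B chr5:15378160-15378234 minus: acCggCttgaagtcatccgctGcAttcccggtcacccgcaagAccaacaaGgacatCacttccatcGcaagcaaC
A read from the first stretch added 1 count to each B copy, so the sum over the RBCS genes exceeds the number of their reads.

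Upstream of the nuclear members, matches to the I-box GATAAG and the G-box CACGTG were searched on both strands in the 250 bases before the most downstream annotated start site. These short elements are known from light-responsive plant promoters, and they are shown because the 4 RBCS genes are described together below. RBCS1A held 2 I-box and 1 G-box matches, RBCS1B held 2 I-box matches that share 1 base and no G-box, RBCS2B and RBCS3B each held 3 I-box and 1 G-box matches, and RCA held 1 G-box match and no I-box. Of 27443 nuclear protein-coding genes, 12.61% had an I-box in the same window, 6.676% a G-box and 0.9948% both. A match is a description of the letters and not of a bound factor, and the windows of RBCS1A, RBCS1B, RBCS3B and RCA lie partly inside the span of a longer annotated transcript. The G-box matches are in capitals in 30-base stretches of the same assembly, read along the strand of the gene:
RBCS1A chr1:25049491-25049520 minus: ggaattatcttcCACGTGgcattattccag
RBCS2B chr5:15382177-15382206 minus: ggagttttctgcCACGTGatcttatcctag
RBCS3B chr5:15378506-15378535 minus: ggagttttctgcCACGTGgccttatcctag
RCA chr2:16573579-16573608 minus: ataaacatattcCACGTGgaccaatcaaaa
The I-box match nearest to the start site is in capitals in these stretches, which the RBCS genes follow with a like run of bases:
RBCS1A chr1:25049462-25049491 minus: gcggttcaagccGATAAGggtctcaacacc
RBCS1B chr5:15385303-15385332 minus: aaagaaagataaGATAAGggtgtcaacacc
RBCS2B chr5:15382148-15382177 minus: gtggtccaaatcGATAAGggtgtcaacacc
RBCS3B chr5:15378477-15378506 minus: gtggtgcgtaccGATAAGggtgtcaacacc

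Mito libraries held 24660745 to 32418348 counts and Total libraries 49434596 to 60464017, so counting error is small beside the spread between libraries for members with 19122 counts or more. Plastid genes took 42.7 to 48.9% of counts in Mito and 56.7 to 62.2% in Total. Mitochondrial genes took 2.89 to 5.16% in Mito and 0.959 to 1.19% in Total, and nuclear genes 46.9 to 52.7% and 36.9 to 42.1%. Levels below are CPM, counts divided by a library size that TMM scaling has adjusted so that the bulk of genes is equal between libraries. The TMM factors were 1.14 to 1.28 in Mito and 0.793 to 0.986 in Total, and WT Total replicate 2 had the highest factor of the Total libraries. OTP90 had 6 to 20 counts per library, too few to check the genotype labels. All 4 leaf markers were abundant, from 261 CPM upwards for PSAD2 to 12940 CPM for CAB1. Of 6 markers of other organs, SESA3 and EXPA7 were at 0 in every library, CRA1, AP3 and AG stayed under 1 CPM, and the root beta-glucosidase gene PYK10 was at 24.0 to 40.5 CPM in Mito but 0.0205 to 0.866 CPM in Total.

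The large subunit gene was by far the most abundant member. It took 10.8 to 14.4% of all counts in a library and ranked 2 among all genes in each of the 12 libraries, behind psbA. Its level in Mito was 107743, 95818 and 84391 CPM for the WT libraries and 120659, 95339 and 106762 CPM for the otp90 libraries. Its level in Total was 166174, 136360 and 181891 CPM for WT and 174310, 149945 and 144882 CPM for otp90. Every Mito library lay below every Total library, while the genotypes overlapped within each extract.

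Among the small subunit genes RBCS1A, known as the main leaf copy, was the highest and RBCS3B followed. RBCS1A was at 4003, 4174 and 3968 CPM in WT Mito and at 4541, 4169 and 4655 CPM in otp90 Mito. In Total it was at 8992, 6260 and 8651 CPM in WT and at 7755, 7266 and 6232 CPM in otp90, so that here too no Mito library reached a Total library. The RBCS3B level was 1399.6, 1518 and 1431 CPM in WT Mito, 1602, 1590.4 and 1677 CPM in otp90 Mito, 3604, 2695 and 3824 CPM in WT Total and 3253, 3331 and 2368 CPM in otp90 Total. Its otp90 Mito libraries all lay above its WT Mito libraries, the only member and genotype comparison without overlap, a pattern that 6.64% of genes had in this direction. RBCS1B ranged from 713 to 953 CPM in Mito and from 1284 to 2335 CPM in Total, and RBCS2B from 525 to 724 CPM in Mito and from 1108 to 1755 CPM in Total.

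The levels of the activase gene overlapped between the extracts. RCA was at 3264, 3621 and 3385 CPM in WT Mito and at 3558, 4346 and 3145 CPM in otp90 Mito. In Total it was at 3935, 3419.8 and 5078 CPM in WT and at 4632, 4642 and 3862 CPM in otp90, and its Mito and Total libraries overlapped in both genotypes.

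**Figure D1:**
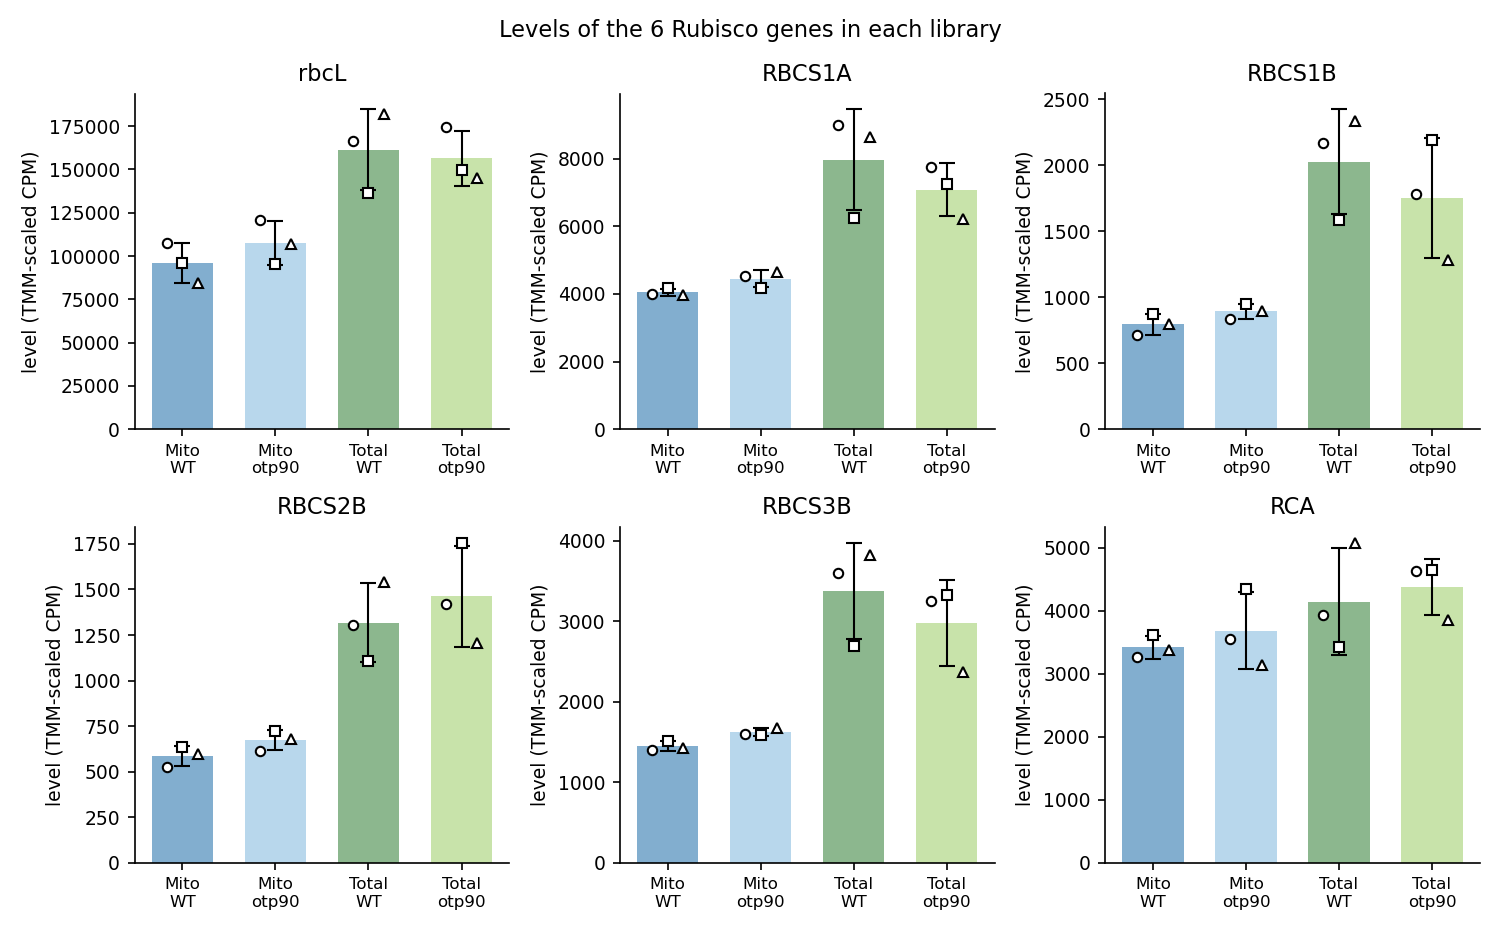
Level of each member in TMM-scaled CPM on the y axis for the 4 groups, with bars at the mean, error bars of 1 SD over 3 libraries, and circles, squares and triangles for replicates 1, 2 and 3. The Mito bars of rbcL and the RBCS genes stand below the Total bars without overlap of libraries, and those of RCA overlap (3423 against 4144 CPM in WT).

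Compared per kilobase of exon, which removes the effect of length on counts, the order of levels was the same in both genotypes. In WT Mito, mean levels per kilobase were 66656 ± 8109 CPM for rbcL, 3193 ± 87.0 for RBCS1A, 1629 ± 86.4 for RCA, 1028 ± 43.5 for RBCS3B, 627 ± 60.2 for RBCS2B and 419.6 ± 42.4 for RBCS1B (SD, n = 3), and no neighbours in this order overlapped. In WT Total they were 112135 ± 16060 CPM for rbcL, 6283 ± 1174 for RBCS1A, 2393 ± 424 for RBCS3B, 1973 ± 404 for RCA, 1409 ± 231 for RBCS2B and 1071 ± 208 for RBCS1B (SD, n = 3). RBCS3B and RCA had thus changed places, although their Total libraries overlapped in both genotypes, as did those of RCA and RBCS2B. RBCS2B and RBCS1B overlapped in WT Total only. Among the nuclear genes ranked per kilobase in each library, RBCS1A held places 3 to 7, RCA 9 to 24, RBCS3B 13 to 30, RBCS2B 21 to 50 and RBCS1B 40 to 76. The genes ranked include AT2G07732, which has windows in common with rbcL and 191092 to 512512 counts per library. These places can thus depend on plastid reads counted at a nuclear gene, which was not tested. The exon length of RBCS1B, 1894 bases, includes a long annotated isoform whose use was not measured, so its level per kilobase depends on that annotation. The aligner opened no introns, and 12.4 to 23.3% of the windows in the nuclear transcripts cross a junction against 0 in rbcL, so levels per kilobase of rbcL and of nuclear members are not on quite the same footing.

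The Mito against Total comparison asks how the content of the extracts differs. In WT, rbcL and all 4 RBCS genes were lower in Mito, and RCA did not pass the test (edgeR quasi-likelihood test, Benjamini-Hochberg adjustment over all genes tested). These 5 of 6 members stand against 20.9% of all 16436 genes that were called lower and 28.3% whose libraries did not overlap in this direction. The log2 fold change was −1.33 for RBCS1B (SE 0.173, edgeR adjusted p = 0.00157), −1.2 for RBCS3B (SE 0.156, adjusted p = 0.00158), −1.15 for RBCS2B (SE 0.152, adjusted p = 0.00168) and −0.96 for RBCS1A (SE 0.167, adjusted p = 0.00456). It was −0.73 for rbcL (SE 0.207, edgeR adjusted p = 0.0270), and −0.26 for RCA (SE 0.168, edgeR adjusted p = 0.252). Two-sided p-values are given throughout. The rbcL call was lost with the replicate number as a block (SE 0.396, adjusted p = 0.203, edgeR). Same-numbered libraries of this comparison hardly deviated together from their groups (correlation across genes 0.0702, 0.00123 and 0.0403). The rbcL call was also lost without a filter on low counts (adjusted p = 0.0752, edgeR) and without each of the 6 libraries in turn other than WT Total replicate 2 (adjusted p = 0.0532 to 0.165, edgeR). Without WT Total replicate 2, RCA was also lower (log2 fold change −0.43, edgeR adjusted p = 0.0248), which made 6 of 6 members. In that setting 5124 of 16300 genes were called lower, against 3428 of 16436 in the main fit.

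In otp90 the same 5 members were lower in Mito, against a background of 22.3% of 16337 genes called lower and 30.2% without overlap in this direction. The log2 fold change was −1.08 for RBCS2B (SE 0.160, edgeR adjusted p = 0.00160), −0.93 for RBCS1B (SE 0.197, adjusted p = 0.00731), −0.84 for RBCS3B (SE 0.148, adjusted p = 0.00339), −0.63 for RBCS1A (SE 0.117, adjusted p = 0.00412) and −0.50 for rbcL (SE 0.133, adjusted p = 0.0186). RCA was at −0.21 (SE 0.150, edgeR adjusted p = 0.282). The rbcL call was lost without otp90 Mito replicate 2 or 3 or otp90 Total replicate 1 or 2 (adjusted p = 0.0586 to 0.0709, edgeR).

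These directions are relative to the bulk of genes. Scaled by library size alone, the median of all genes moved to 0.48 in WT and 0.47 in otp90, and genes called higher in Mito made up 7798 of 8777 called in WT and 8795 of 10004 in otp90, against 3748 of 7176 and 4049 of 7699 with TMM. In WT, rbcL (−0.24) and the RBCS genes (−0.83 to −0.46) were still called lower on that scale and RCA turned to 0.24, whereas in otp90 RBCS2B alone was called lower (−0.63, edgeR adjusted p = 0.0134) and RCA turned to 0.25, neither RCA value past the threshold. A common scaling factor leaves the order of genes within the nuclear genome as it is. In WT only 1.65% of 16255 nuclear genes had a lower fold change than RBCS1B, 2.36% than RBCS3B, 2.81% than RBCS2B, 5.27% than RBCS1A and 31.4% than RCA. In otp90 the shares were 3.72% of 16152 for RBCS2B, 5.70% for RBCS1B, 7.29% for RBCS3B, 13.1% for RBCS1A and 34.2% for RCA. The median plastid gene was at −1.24 in WT and −1.01 in otp90, and rbcL lay above 67.2% of 128 plastid genes in WT and above 66.2% of 130 in otp90. The root marker PYK10 was called higher in Mito in both genotypes (log2 fold change 9.42 in WT and 6.77 in otp90) and the 4 leaf markers were all called lower. The part of these differences in the member values was not tested, and fewer cells of a type cannot be told apart from less RNA per cell in such extracts.

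**Figure D2:**
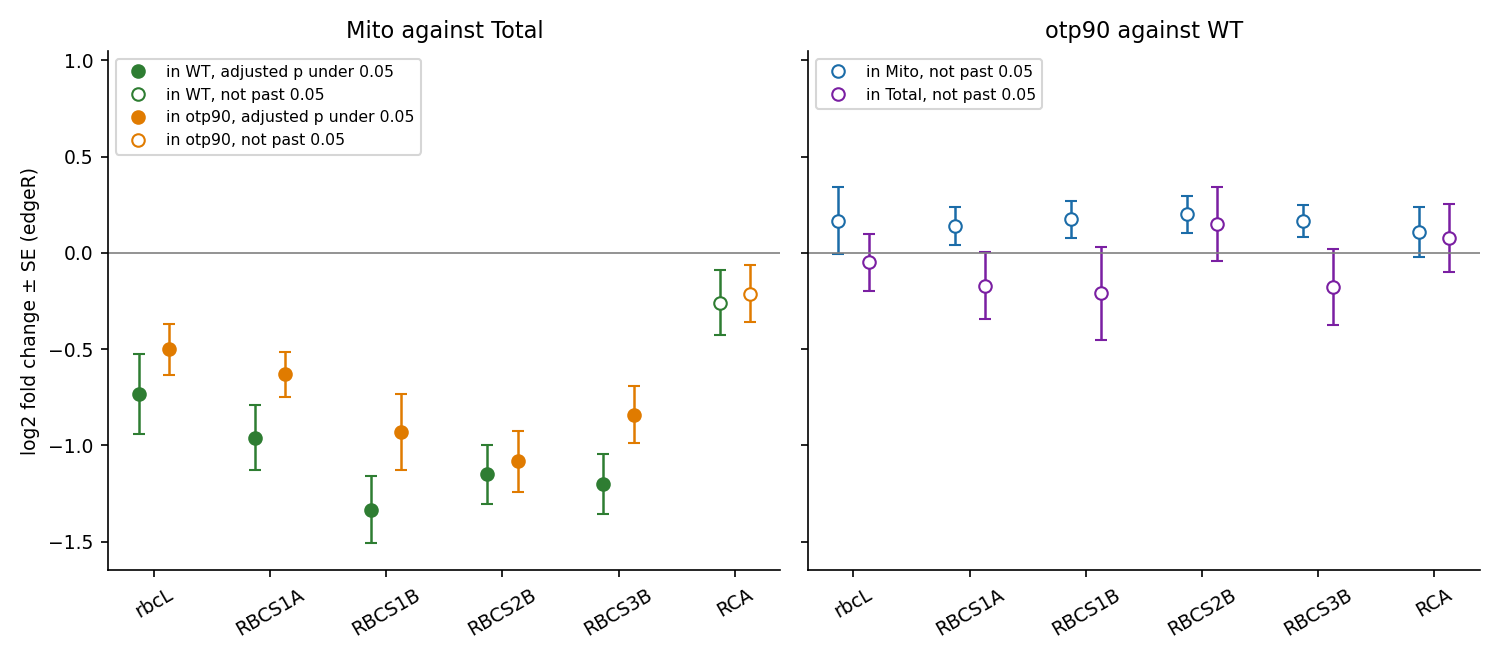
Log2 fold change with its standard error for each member (x axis), for Mito against Total at the left in WT and otp90 and for otp90 against WT at the right in Mito and Total, with filled points past an adjusted p of 0.05 in the edgeR test. In the left panel the RBCS genes and rbcL are filled and RCA is open near −0.26 and −0.21, and in the right panel all points are open.

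The ratio of large to small subunit counts was formed inside each library, where scaling cancels. The counts of rbcL were 16.2, 13.3 and 12.4 times the summed RBCS counts in WT Mito, 15.9, 12.8 and 13.5 times in otp90 Mito, 10.3, 11.7 and 11.1 times in WT Total and 12.3, 10.3 and 13.1 times in otp90 Total. All 3 WT Mito libraries lay above the WT Total libraries, and the otp90 extracts overlapped. In WT the ratio was 1.26-fold higher in Mito (log2 difference 0.33, SE 0.127, exact permutation test p = 0.1, the lowest value possible with 3 libraries a side), and in otp90 1.19-fold higher (0.25, SE 0.138, exact p = 0.2). Between the genotypes the log2 difference was 0.012 in Mito (SE 0.148, exact p = 0.9) and 0.10 in Total (SE 0.114, exact p = 0.5). Over the 20 tests of ratios and shares the smallest Benjamini-Hochberg adjusted exact p was 0.182, so none passed 0.05. Reads counted in several B copies inflate the denominator. With RBCS1A plus only the highest B copy, a lower limit of the small subunit sum, the mean ratio was 17.5 in WT Mito, 17.7 in otp90 Mito, 14.3 in WT Total and 15.6 in otp90 Total, and with RBCS1A alone it was 23.7, 24.1, 20.4 and 22.1. Per kilobase of exon, the mean ratio was 12.7 ± 1.80 in WT Mito and 10.1 ± 0.606 in WT Total (SD, n = 3).

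Relative to RBCS, activase counts were higher in each Mito library than in any Total library. The RCA counts were 0.492, 0.503 and 0.498 of the summed RBCS counts in WT Mito, 0.468, 0.585 and 0.398 in otp90 Mito, 0.245, 0.294 and 0.311 in WT Total and 0.326, 0.319 and 0.348 in otp90 Total. No Mito library overlapped a Total library of its genotype, and the ratio was 1.77-fold higher in Mito in WT (log2 difference 0.82, SE 0.104, exact permutation p = 0.1) and 1.44-fold higher in otp90 (0.53, SE 0.165, exact permutation p = 0.1). Within Total, the 3 otp90 libraries lay above the 3 WT libraries, by 1.17-fold (0.23, SE 0.110, exact permutation p = 0.1), while in Mito they overlapped (−0.059, SE 0.161, exact permutation p = 0.7). This difference between the genotype effects did not pass a test added after the values were seen (log2 difference −0.29, exact permutation p = 0.18). Leaving out each of the 12 libraries in turn gave −0.44 to −0.16 for this difference. In 11 of these 12 settings it again did not pass the test. The exception was the setting without otp90 Mito replicate 2 (−0.44, exact permutation p = 0.005, the lowest value possible in that setting). A pass thus depended on leaving out that library.

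**Figure D3:**
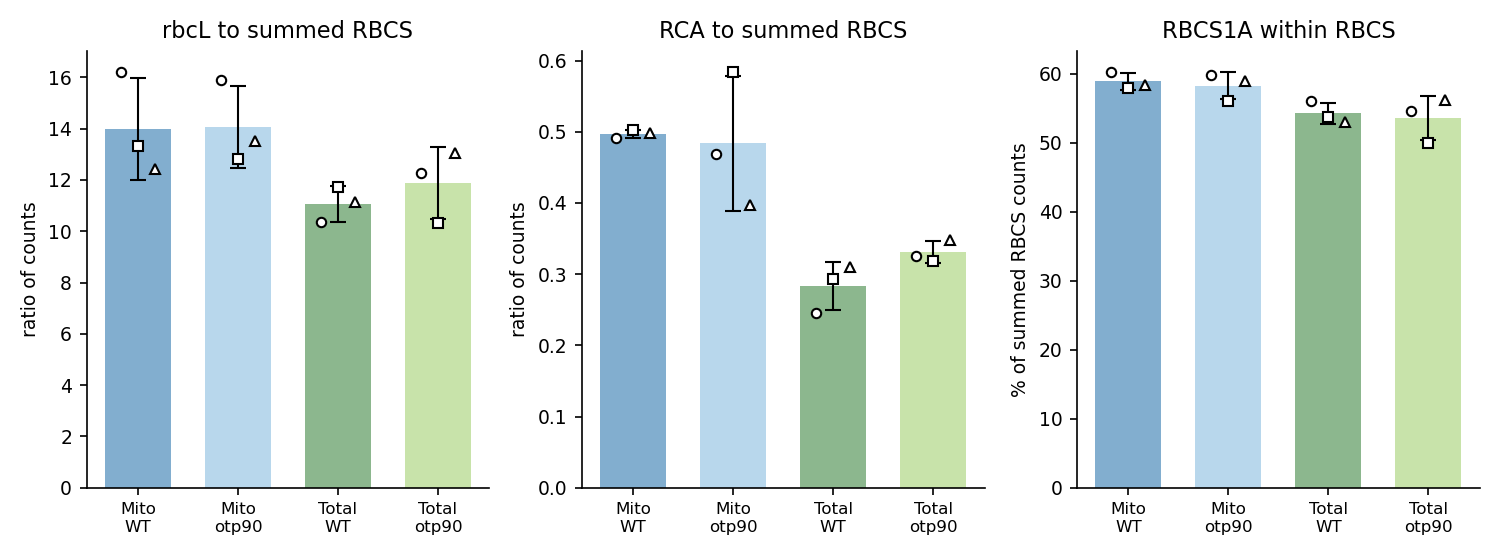
Ratio of rbcL to summed RBCS counts, ratio of RCA to summed RBCS counts and RBCS1A as a percentage of summed RBCS counts, for the 4 groups on the x axis, with bars at the mean, error bars of 1 SD over 3 libraries and circles, squares and triangles for replicates 1, 2 and 3. The RCA ratio lies between 0.398 and 0.585 in Mito and between 0.245 and 0.348 in Total.

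Within the small subunit family RBCS1A gave 58.9% ± 1.23 of the RBCS counts in WT Mito, 58.2% ± 1.93 in otp90 Mito, 54.2% ± 1.58 in WT Total and 53.6% ± 3.23 in otp90 Total (SD, n = 3). The Mito share was 1.09-fold the Total share in both genotypes, without overlap in WT (exact permutation p = 0.1) and with overlap in otp90 (exact permutation p = 0.2). RBCS3B gave 21.1% ± 0.0111 in WT Mito and 23.0% ± 0.496 in WT Total, RBCS1B 11.5% ± 0.721 and 13.8% ± 0.435, and RBCS2B 8.51% ± 0.524 and 9.01% ± 0.780 (SD, n = 3). In otp90 the Total share of RBCS2B was 11.0% ± 1.04, with each library above the 3 WT Total libraries, and this difference was not tested. Shares of the B copies include the reads they have in common.

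Within the nuclear genome the RBCS share was lower in each Mito library than in any Total library, whereas the direction of the rbcL share within the plastid genome depended on whether psbA and rRNA were counted in the total. In WT the RBCS genes together took 1.63, 1.78 and 1.65% of nuclear counts in Mito and 3.44, 2.73 and 3.36% in Total, a 0.534-fold level in Mito, and in otp90 they took 1.84, 1.79 and 1.86% in Mito and 2.98, 3.22 and 2.45% in Total, a 0.640-fold level. Neither genotype had an overlap between extracts (exact permutation p = 0.1 for each). In Mito the 3 otp90 libraries lay above the 3 WT libraries, by 1.08-fold (exact permutation p = 0.1), and in Total they overlapped (exact permutation p = 0.5). The nuclear total includes AT2G07732, the gene with windows in common with rbcL, at 191092 to 512512 counts per library. The RBCS share without that gene was not computed. For rbcL the share of plastid counts was 26.0, 24.3 and 25.3% in WT Mito, 28.2, 24.6 and 26.2% in otp90 Mito, 22.9, 23.7 and 23.9% in WT Total and 22.6, 21.1 and 19.0% in otp90 Total. It was 1.07-fold higher in Mito in WT and 1.26-fold higher in otp90, without overlap (exact permutation p = 0.1 for each). The plastid total moved with psbA, which took 12.5 to 17.0% of all counts in Mito and 24.5 to 34.8% in Total. With psbA and the rRNA genes taken out of the total, the rbcL share was lower in Mito in both genotypes (log2 difference −0.22 in WT and −0.14 in otp90, exact permutation p = 0.1 for each).

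**Figure D4:**
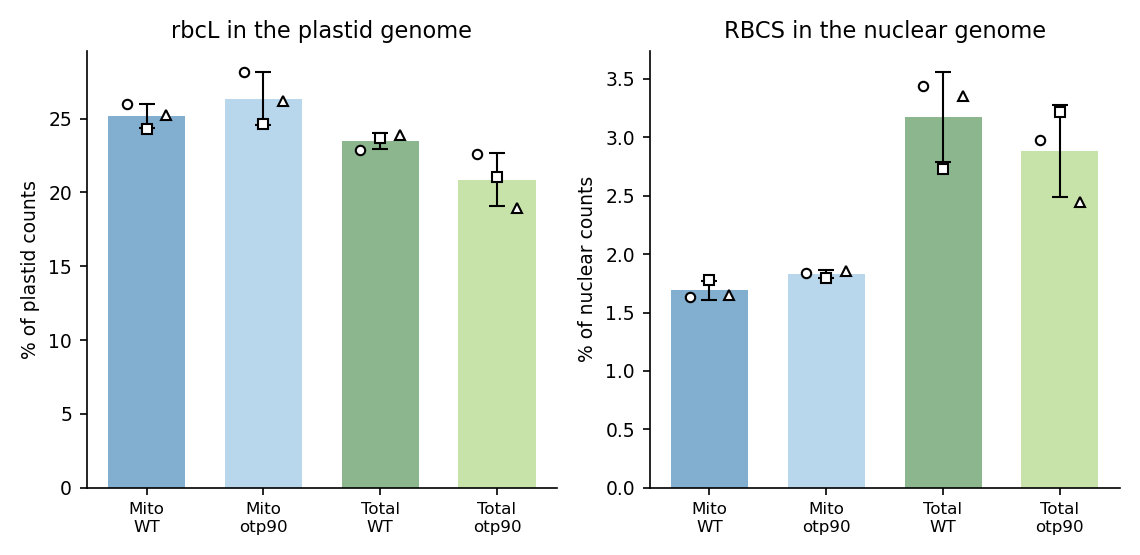
Share of rbcL in plastid counts and of the summed RBCS genes in nuclear counts, in percent, for the 4 groups on the x axis, with bars at the mean, error bars of 1 SD over 3 libraries and circles, squares and triangles for replicates 1, 2 and 3. The RBCS share lies between 1.63 and 1.86% in Mito and between 2.45 and 3.44% in Total, and the rbcL share spans 19.0 to 28.2%.

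The otp90 against WT comparison asks what the insertion changes in leaf RNA. No member passed the test in either extract. In Mito, 0 of 6 members were called against 0.0604% of 16570 genes (10 genes, with 1153 at an unadjusted p under 0.05 and 105 called by DESeq2), and 221 genes were called with the replicate number as a block, again with 0 members. All 6 Mito values were above 0, from 0.11 for RCA (SE 0.129) to 0.20 for RBCS2B (SE 0.0962), with edgeR adjusted p = 0.745 to 0.909. A like shift was seen outside the members. The median was 0.15 for the Rubisco biogenesis genes and 0.13 for the other Calvin-Benson genes listed below, against −0.0044 over all genes. With the block, RBCS2B (0.20, SE 0.0762, edgeR unadjusted p = 0.0198, adjusted p = 0.278) and RBCS1B (0.18, SE 0.0795, edgeR unadjusted p = 0.0429, adjusted p = 0.375) were not called either, and both genes and RBCS3B were higher in otp90 in 3 of 3 same-numbered pairs. The share of all genes higher in 3 of 3 pairs was not counted, and the B copies have reads in common. RBCS3B, whose libraries did not overlap (6.64% of genes were higher and 6.16% lower without overlap), was at 0.17 (SE 0.0844, edgeR adjusted p = 0.747), and rbcL was at 0.17 (SE 0.174). The value of RCA turned to −0.023 without otp90 Mito replicate 2. In Total, where no member was without overlap (4.58% of genes were higher and 4.39% lower without overlap), edgeR called 0 of 6 members and 0.0% of 15373 genes, while 458 had an unadjusted p under 0.05 and DESeq2 called 18. There rbcL was at −0.050 (SE 0.147), RBCS1A at −0.17 (SE 0.174), RBCS1B at −0.21 (SE 0.242), RBCS3B at −0.18 (SE 0.198), RBCS2B at 0.15 (SE 0.195) and RCA at 0.077 (SE 0.179). The spread in Total was wider, with a common dispersion of 0.0516 against 0.00901 in Mito. Leaving out 1 Total library turned the sign of rbcL, RBCS2B or RCA and brought RBCS1B as near to 0 as −0.026 and RBCS3B as near as −0.034. The difference between the Mito and Total effects was 0.22 for rbcL, 0.32 for RBCS1A, 0.39 for RBCS1B, 0.056 for RBCS2B, 0.35 for RBCS3B and 0.035 for RCA on the log2 scale. None was called, nor was any of 16825 genes by edgeR (0.0%, while 854 had an unadjusted p under 0.05, and DESeq2 called 6).

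The genes around the members in the same pathway were taken as lists: 19 genes of Rubisco biogenesis, with chaperonins, assembly factors and rbcL transcript factors, and 19 other genes of the Calvin-Benson cycle. In WT, 13 of 19 biogenesis genes were lower in Mito, 1 was higher and 5 did not pass, with a median log2 fold change of −0.92, and 15 of the 18 cycle genes tested were lower and 1 was higher, with a median of −0.997. Over all genes 20.9% were called lower and 22.8% higher, and the median was 0.0026. BSD2, a chaperone of Rubisco assembly, was at 28.6 ± 3.77 CPM in WT Mito and 76.5 ± 9.88 CPM in WT Total (SD, n = 3), a log2 fold change of −1.40 (edgeR adjusted p = 0.000748). CBBY, a phosphatase for an inhibitory sugar phosphate of Rubisco, was at −1.42 (edgeR adjusted p = 0.00175). In the cycle RPI3, a ribose phosphate isomerase, was at −1.45 and CP12-2, a small regulator of the cycle, at −1.37 (edgeR adjusted p = 0.000426 and 0.00100). The genes that rose were low in both extracts: CPN60B3, a chaperonin subunit, at 10.1 ± 0.284 against 5.18 ± 0.121 CPM, and TKL2, a transketolase, at 4.68 ± 0.405 against 1.90 ± 0.221 CPM (SD, n = 3).

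In otp90, 10 of 19 biogenesis genes were lower in Mito and 3 higher, with a median log2 fold change of −0.55, and 14 of 18 cycle genes were lower and 1 higher, with a median of −0.79, against 0.017 over all genes, of which 22.3% were called lower and 24.8% higher. CBBY was at −1.30, RBCX1, an assembly chaperone, at −1.29, CP12-2 at −1.48 and GAPA2, a glyceraldehyde 3-phosphate dehydrogenase subunit, at −1.11. CPN60B3 rose by 0.77, CPN60B2, a chaperonin subunit, by 0.68, and TKL2 by 1.07 (edgeR adjusted p = 0.0335 for CPN60B2, the highest of these 7). The call of CPN60B2 was lost without any 1 of the otp90 Mito libraries or otp90 Total replicate 1, and that of RBCX1 without otp90 Mito replicate 2 or 3 or otp90 Total replicate 1, and RBCX1 also with library size alone (−0.83, edgeR adjusted p = 0.0740). The member medians were −1.06 in WT and −0.74 in otp90. No gene of either list was called between the genotypes, nor in the difference between the genotype effects.

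**Figure D5:**
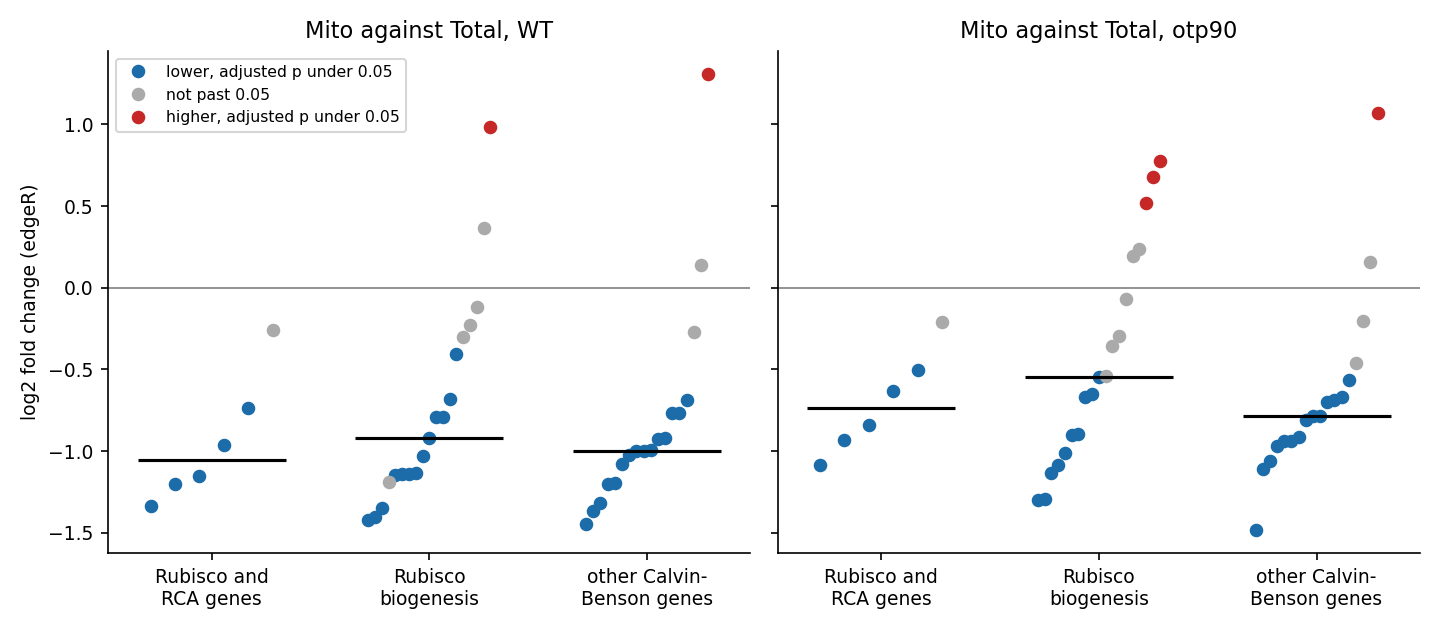
Log2 fold change of Mito against Total for the 6 members, the Rubisco biogenesis genes and the other Calvin-Benson genes (x axis), in WT at the left and otp90 at the right, with 1 point per gene, colour for the edgeR call and a line at the median. The medians lie at −1.06, −0.92 and −0.997 in WT and at −0.74, −0.55 and −0.79 in otp90.

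The genes whose pattern over the 12 libraries was most like that of a member were ranked by the root mean square difference of centred log2 levels, over 2322 genes with a mean of at least 5 on the log2 CPM scale. Nearest to rbcL were AT2G07732 (0.0745), the gene that has windows in common with it, then petD (0.0994), a plastid gene for a subunit of the cytochrome b6f complex, and SSR16 (0.103). Nearest to RBCS1A were GDC1 (0.0591), CHLI1 (0.0656), a magnesium chelatase subunit of chlorophyll synthesis, and CAB2 (0.0701), a light-harvesting protein gene. Nearest to RCA were RSR4 (0.103), AT5G35970 (0.104) and BAG1 (0.107). Among the members themselves RBCS1A was at 0.142 from rbcL, in place 26 of its order, and RBCS3B at 0.130 from RBCS1A, in place 107, whereas the member nearest to RCA was rbcL at 0.274, in place 726. The 12 libraries fall into Mito and Total, so all of these distances hold the difference between extracts.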

How the data were processed

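Raw gene counts were deposited by the authors, 1 table per library, and the headers name featureCounts 1.6.3 over exons of Ensembl Genomes release 39, strand setting 2, with multi-mapping reads included. The study's methods give stranded single-end libraries after ribosomal depletion, aligned by STAR to the nuclear and plastid genomes of that release and the Col-0 mitochondrial genome, with no introns opened and each best position kept. All 32548 nuclear identifiers were found in RefSeq TAIR10.1, 99.95% with the same span. The members and the lists were chosen with earlier results of these data known.

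Counts were fitted in edgeR 4.0.16 under R 4.3.3 (TMM factors, glmQLFit, glmQLFTest) for genes over 1 CPM in at least 3 libraries, with 6 libraries per comparison and all 12 for the difference between genotype effects, and p-values were adjusted by Benjamini-Hochberg over all genes at 0.05. The SE was obtained from the coefficient and its F value. Ratios were tested on the log2 scale by exact two-sided permutation of libraries. Tests of the difference between genotype effects on ratios permuted genotype inside each extract (400 relabelings, fewer with a library left out) and were added after the values were seen. A count of 3 was 0.0925 to 0.122 CPM in Mito and 0.0496 to 0.0607 CPM in Total, which covers counting error only. Replicates differed by a chi-square of at least 13.01 per degree of freedom, so none repeated another. The fits were tested on simulated data.

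Replicate numbers were taken to pair WT and otp90 in Mito, since same-numbered libraries deviated together from their groups (correlation across genes 0.410, 0.388 and 0.111). The main fits left the libraries unpaired, and the pairing entered only the alternatives and the counts of same-numbered pairs. In the other comparisons at least 1 pair was under 0.1. Alternatives were DESeq2 1.42.0, library size alone, no filter, nuclear genes only, a replicate block, 1 fit of all libraries, other denominators and totals, and each library left out. Named genes were all members, up to 2 genes with the largest rise and 2 with the largest fall among the called genes of each list, and the 3 genes most like rbcL, RBCS1A and RCA.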

Additional observations from a re-analysis of the deposited data

Results flagged for a closer look

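The effect of otp90 on the share of rbcL in plastid counts differed in sign between the extracts. In Mito the log2 difference was 0.063, with overlap of the genotypes (exact permutation p = 0.4) and a higher share in otp90 in 3 of 3 same-numbered pairs. In Total it was −0.17, without overlap (exact permutation p = 0.1), so that the effects differed by 0.2366 on the log2 scale. A test added after the values were seen, which permuted genotype inside each extract, gave an exact permutation p of 0.04, and 0.2 after Benjamini-Hochberg adjustment over the 5 ratios and shares, so the difference did not pass the correction. Leaving out each library gave 0.17 to 0.30, with an exact permutation p of 0.01 to 0.095. With psbA and the rRNA genes taken out of the plastid total the difference was 0.079 (exact permutation p = 0.36). The effect of otp90 was then 0.064 in Mito and −0.015 in Total. In the same libraries psbA took 12.5 to 17.0% of counts in Mito and 24.5 to 34.8% in Total, with the highest share in otp90 Total replicate 3. The part of psbA beyond this alternative was not tested.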

How the results depend on the processing

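Of the values that answer a comparison, 255 held under the settings that keep all libraries and 19 did not. Another 76 of 79 values held, those of single list genes and the difference of the effects on the rbcL share. A value held if its sign and its side of 0.05 stayed the same, and a count of called genes if it stayed within a fixed fold of the main count. The exact tests of ratios and shares between 2 groups cannot go below 0.1, so those values could fail only by a change of sign. The 10 genes called in Mito between genotypes became 95 without a filter on low counts, 105 in DESeq2, 19 among nuclear genes only, 221 with the replicate block and 1 in the fit of all 12 libraries, and 2 to 64 with 1 library left out. For Mito against Total in WT, the replicate block lost the call of rbcL and took the counts called lower from 13 to 12 for biogenesis and from 15 to 14 for the cycle, and it changed no other member call and neither of these counts in otp90 (10 and 14). In Total the count was 18 in DESeq2 and 3 in the fit of 12 libraries, and for the difference between effects 6 in DESeq2. The WT count of Mito against Total ranged from 4322 to 10242 with 1 library left out, the highest without WT Total replicate 2. The rbcL fold change in WT was −0.75 without a filter and −0.73 with the replicate block, neither called. Scaling by library size alone gave, in otp90, −0.045 for rbcL, −0.18 for RBCS1A, −0.48 for RBCS1B and −0.39 for RBCS3B, none called, 0.25 for RCA, and 6 biogenesis genes lower, and in WT 0.24 for RCA. The rbcL share of plastid counts without psbA and rRNA turned to −0.22 in WT and −0.14 in otp90.

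With 1 library left out, rbcL ranged from −0.89 to −0.62 and RCA from −0.43 to −0.12 for Mito against Total in WT, and in otp90 rbcL from −0.63 to −0.39 and RCA from −0.37 to −0.078. For otp90 against WT, RCA ranged from −0.023 to 0.21, rbcL from 0.070 to 0.26, RBCS1B from 0.11 to 0.24 and RBCS2B from 0.13 to 0.26 in Mito, and in Total rbcL from −0.14 to 0.045, RBCS1A from −0.31 to −0.081, RBCS1B from −0.42 to −0.026, RBCS2B from −0.019 to 0.28, RBCS3B from −0.30 to −0.034 and RCA from −0.030 to 0.25, none called. The difference between these effects ranged from −0.067 to 0.21 for RBCS2B, from −0.13 to 0.15 for RCA, from 0.13 to 0.33 for rbcL, from 0.22 to 0.46 for RBCS1A, from 0.21 to 0.59 for RBCS1B and from 0.21 to 0.48 for RBCS3B, none called. The genotype effect in Mito ranged from −0.078 to 0.12 on rbcL to RBCS, from −0.20 to 0.073 on RCA to RBCS and from −0.035 to 0.011 on the RBCS1A share, and the latter ranged from −0.054 to 0.031 in Total. The difference of the effects on rbcL to RBCS ranged from −0.18 to 0.026, and on the RBCS1A share from −0.047 to 0.037. The causes of these changes were not tested. Reads that cross a splice junction, and reads common to the B copies, limit how far levels of the nuclear members can be compared with rbcL.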
